A study of Mus musculus with 19 samples.

Results

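Perigonadal fat from C57BL/6 mice with 60% HFD, a high-fat diet and the first of 2 models of weight gain in the series, was compared between animals without food for 24 hours and animals fed at peak weight. The libraries were chosen by their titles: 4 HFD fed libraries (21, 22, 25 and 27) and 4 HFD fasted libraries (23, 24, 26 and 28), 8 of 19 in all. The diet is thus shared by both groups, and fasting is the only labelled difference. The other model, in which the food was Ensure, has 6 fed and 5 fasted libraries. Its response is set beside that with HFD. Its libraries were also fitted together with the HFD libraries, so they enter the spread behind every HFD p-value. Whole tissue was used, so adipocytes, vessels, immune cells and stroma all contributed RNA. Age and sex are not stated in the labels, and nothing says that each library is a separate animal. The p-values below therefore measure only the spread between these samples. All 24348 genes in the files were considered, of which 3787 had 0 counts in all 8 HFD libraries and 16015 had enough counts to be tested.

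White fat stores fatty acids as triglyceride in the fed state, when insulin drives glucose uptake, fatty acid and sterol synthesis and esterification. During fasting insulin falls, glucocorticoids and catecholamines rise, and lipases break the stored triglyceride down to fatty acids and glycerol that leave the cell. Part of that switch is transcriptional: the sterol-regulated and carbohydrate-regulated factors SREBP and ChREBP lose activity, whereas FoxO, glucocorticoid receptor and PPAR targets gain it. In obese animals the depot also holds many macrophages, some of them lipid-laden.

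The 8 libraries held 18.42 to 22.55 M counts in genes, all from 1 sequencing lane. A count of 3, taken as the floor of detection, corresponds to 0.133 to 0.163 CPM, the usual unit of a gene's counts relative to all counts in genes. That limit covers counting error alone. Levels are CPM scaled by TMM factors, and single values are listed in the order fed 21, 22, 25, 27 and fasted 23, 24, 26, 28. The tissue carried its adipocyte markers in every library, with a sum over 16 genes of 36358, 59438, 40468 and 45685 CPM in the fed and 40229.9, 47222, 39042 and 27199.6 CPM in the fasted libraries. Fasted 28 stood apart in several ways: it had the lowest adipocyte sum, 27.7% of reads that were not unique against 20.7 to 21.8% in the other 7 libraries, and the highest sum of lipid-associated macrophage markers. That sum over 14 genes, Trem2, Gpnmb and Spp1 among them, was 4167, 1514, 3644 and 3313 CPM in the fed and 7615, 1209, 2205 and 21964 CPM in the fasted libraries. Fed 21, fasted 24 and fasted 26 held more RNA of tract epithelium, with sums over 10 markers such as Cdh16 and Pax8 of 304, 31.2, 5.94 and 21.4 CPM in the fed and 9.13, 387, 376 and 7.23 CPM in the fasted libraries. Genes of epididymis and sperm cells were highest in fasted 24, at 381 CPM over 14 genes, and next in fasted 26, at 94.8 CPM. In whole tissue, fewer cells of a type and less RNA per cell cannot be told apart.

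**Figure D1:**
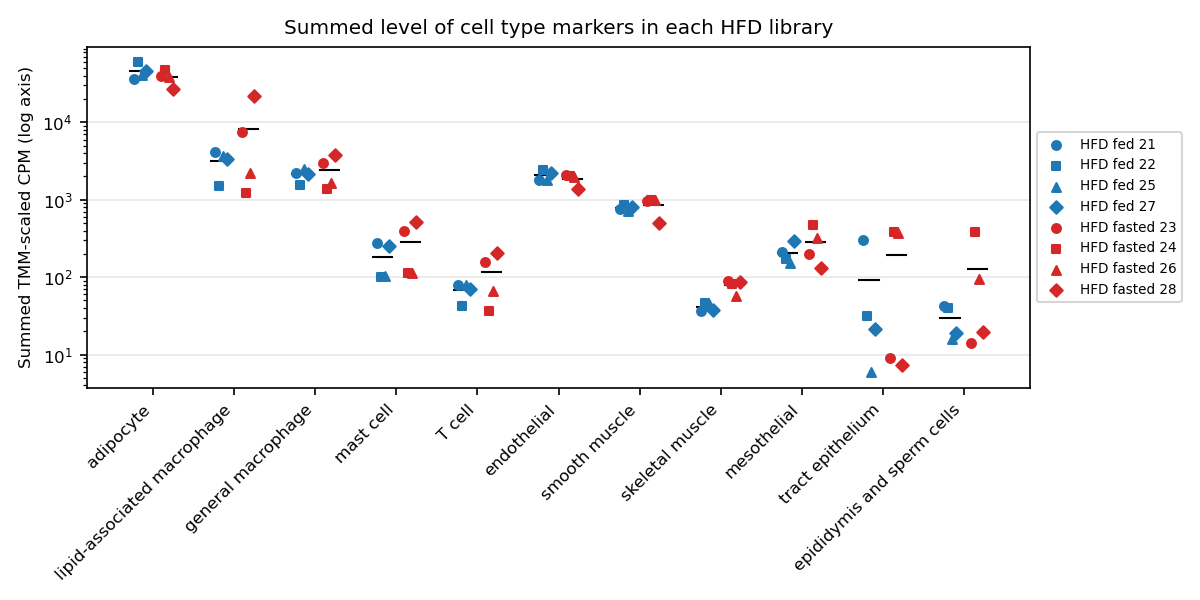
Summed TMM-scaled CPM (log axis) of the markers of 11 cell types in each HFD library; blue symbols are fed and red symbols fasted libraries, one symbol shape per library, and black bars are group means. Fasted 28 has the lowest adipocyte sum (27200 CPM) and the highest lipid-associated macrophage sum (21964 CPM), and fed 21, fasted 24 and fasted 26 stand above the others in tract epithelium (304 to 387 CPM against at most 31.2 CPM).

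After 24 hours without food, 195 of the 16015 genes were called at an adjusted p under 0.05 by edgeR's quasi-likelihood test, 1.22% of those tested. Genes lower after fasting made up most of them: 165 fell (1.03%) and 30 rose (0.187%). The genes that fell included enzymes of triglyceride, fatty acid and sterol synthesis, mitochondrial proteins, amino acid enzymes and surface receptors. Among those that rose were Hilpda and Plin5 of the lipid droplet and Wisp2 and Mmp11 of the matrix remodelling list. Most changes were small: 40 genes fell and 14 rose by at least 2-fold, and 62 of the 195 differed by under 1.5-fold. In 191 of the 195 the 4 fed and 4 fasted values did not overlap, the exceptions being Chchd10, Maff, Matn2 and Fut1. Among all genes tested, every fasted library lay above every fed one in 359 (2.24%) and every fed library above every fasted one in 995 (6.21%). The median log2 fold change (fasted minus fed) of all tested genes was 0.06. An unadjusted p under 0.05 was found for 2375 of the 16015, the background for such counts in the lists below.

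Triglyceride synthesis held the largest changes of any lipid list. Of its 17 tested genes 4 fell, none rose, and the median log2 fold change of the list was -0.38. Dgat2, which adds the last fatty acid to diacylglycerol, was at 2485, 2305, 3894 and 2244 CPM in the fed and 903, 791, 954 and 633 CPM in the fasted libraries (log2 fold change -1.74 ± 0.28 (SE), adjusted p = 0.00782). The highest fasted library lay well under the lowest fed one, and fed 25 was the highest of all 8. Pnpla3, a lipid droplet acyltransferase and lipase that is abundant in fed adipocytes, was at 281, 472, 421 and 333 CPM in the fed and 103, 74.0, 136 and 114 CPM in the fasted libraries (log2 fold change -1.82 ± 0.26 (SE), adjusted p = 0.00373). Its fed and fasted ranges were likewise apart, with fed 22 the highest. Mogat2, a monoacylglycerol acyltransferase, was at 17.8, 12.8, 34.2 and 9.07 CPM in the fed and 5.12, 3.43, 4.01 and 2.47 CPM in the fasted libraries (log2 fold change -2.29 ± 0.55 (SE), adjusted p = 0.0482). Agpat2, which makes phosphatidic acid and whose loss causes lipodystrophy, was at 280.4, 320.0, 511 and 327 CPM in the fed and 159, 172, 185 and 131 CPM in the fasted libraries (log2 fold change -1.15 ± 0.25 (SE), adjusted p = 0.0319). Both had their highest value in fed 25 and their lowest in fasted 28. When each HFD library was left out in turn, Dgat2 and Pnpla3 were called in all 8 fits and Mogat2 and Agpat2 in none.

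Fatty acid synthesis moved less evenly. Of 23 tested genes 2 fell, none rose, and 17 had a fold change under 0, with a list median of -0.34. Scd2, a stearoyl-CoA desaturase, was at 690.5, 353, 1389 and 442 CPM in the fed and 153, 182, 235 and 130.3 CPM in the fasted libraries (log2 fold change -2.04 ± 0.39 (SE), adjusted p = 0.0204). Fed 25 was the highest of the 8 and fasted 28 the lowest. Aacs, which activates acetoacetate for lipid synthesis, was at 83.4, 126, 114 and 119.7 CPM in the fed and 68.6, 76.8, 65.4 and 40.9 CPM in the fasted libraries (log2 fold change -0.82 ± 0.19 (SE), adjusted p = 0.0482). Fasn, fatty acid synthase, was at 2221, 2466, 4199 and 1724 CPM in the fed and 849, 1062, 1228 and 516 CPM in the fasted libraries. Its groups did not overlap, but the difference did not pass the threshold (log2 fold change -1.54 ± 0.37 (SE), adjusted p = 0.0518). The same held for Acly, ATP citrate lyase (log2 fold change -0.88 ± 0.22 (SE), adjusted p = 0.0584), and for Srebf1, the gene of SREBP-1 (log2 fold change -0.53 ± 0.15 (SE), adjusted p = 0.107). For Scd1, the main desaturase of this depot, the groups overlapped: its levels were 25975, 55996, 29947 and 38333 CPM in the fed and 28467, 53319.5, 38108 and 14618 CPM in the fasted libraries (log2 fold change -0.16 ± 0.35 (SE), adjusted p = 0.84). Scd2 was called in 4 of the 8 fits that leave out 1 library and Aacs in none. Neither was called without fed 25 or without fasted 28, where the list had 0 calls each time and medians of -0.31 and -0.35. DESeq2 called 9 members of this list lower.

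Cholesterol synthesis held 5 genes that fell among 26 tested and none that rose, with a list median of -0.51 and 23 fold changes under 0. The list runs from acetyl-CoA units through mevalonate and squalene to cholesterol. Mvk, mevalonate kinase, was at 28.3, 24.9, 43.9 and 23.1 CPM in the fed and 16.8, 16.7, 16.5 and 15.0 CPM in the fasted libraries (log2 fold change -0.88 ± 0.17 (SE), adjusted p = 0.0202), and Pmvk, phosphomevalonate kinase, at 36.5, 37.6, 58.9 and 33.5 CPM in the fed and 20.4, 23.2, 24.6 and 19.7 CPM in the fasted libraries (log2 fold change -0.92 ± 0.19 (SE), adjusted p = 0.0266). In both, the 4 fasted values lay close together and below every fed one. Idi1, the isomerase that follows, was counted at a low level of 4.14, 4.15, 7.41 and 4.28 CPM in the fed and 2.59, 1.96, 3.20 and 1.53 CPM in the fasted libraries (log2 fold change -1.10 ± 0.25 (SE), adjusted p = 0.0352), between 28 and 146 raw counts. Reads of Idi1 may be split with or lost to near-identical copies, so its level is uncertain. Lss, which closes squalene epoxide into lanosterol, was at 51.3, 36.2, 87.4 and 38.8 CPM in the fed and 27.3, 25.2, 28.7 and 24.0 CPM in the fasted libraries (log2 fold change -1.02 ± 0.23 (SE), adjusted p = 0.0348). Sc5d, a late sterol desaturase, was at 132, 142, 232 and 139 CPM in the fed and 95.4, 64.8, 91.5 and 64.8 CPM in the fasted libraries (log2 fold change -1.03 ± 0.23 (SE), adjusted p = 0.0356). All 5 had their highest value in fed 25. Without that library none of the 5 was called and the list median was -0.18, and without fasted 28 none was called at a median of -0.50.

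Promoter windows of these 5 genes are shown because the genes were called together and because sterol genes are known to combine SREBP with the CCAAT-binding factor NF-Y. The sequences are the 150 bases before each start in RefSeq (GRCm38.p6), 5′ to 3′ in the direction of the gene, with capitals marking CCAAT or its reverse complement ATTGG.
Mvk: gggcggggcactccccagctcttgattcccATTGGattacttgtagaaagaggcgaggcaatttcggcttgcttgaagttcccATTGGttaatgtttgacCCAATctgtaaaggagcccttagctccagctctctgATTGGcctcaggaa
Pmvk: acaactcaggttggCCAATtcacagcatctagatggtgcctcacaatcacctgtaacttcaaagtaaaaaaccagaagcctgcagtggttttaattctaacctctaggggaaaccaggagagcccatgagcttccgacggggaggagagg
Idi1: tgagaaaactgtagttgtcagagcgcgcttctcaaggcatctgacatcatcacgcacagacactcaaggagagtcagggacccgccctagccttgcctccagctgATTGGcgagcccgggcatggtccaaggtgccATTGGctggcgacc
Lss: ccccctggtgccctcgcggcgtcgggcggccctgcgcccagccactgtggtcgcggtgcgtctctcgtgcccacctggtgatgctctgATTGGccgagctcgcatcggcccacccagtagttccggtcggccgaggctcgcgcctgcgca
Sc5d: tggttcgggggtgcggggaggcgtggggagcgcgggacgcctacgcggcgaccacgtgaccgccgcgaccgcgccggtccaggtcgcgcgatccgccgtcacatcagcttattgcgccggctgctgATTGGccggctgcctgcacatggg
They lie at chr5:114444119-114444268 (Mvk), chr3:89454391-89454540 (Pmvk, the first of 2 annotated starts), chr13:8885456-8885605 (Idi1) and chr10:76531455-76531604 (Lss), all on the plus strand, and at chr9:42264301-42264450 on the minus strand (Sc5d). Mvk held 4 such boxes, at 120, 67, 50 and 14 bases before the start, and Idi1 held 2, at 45 and 14 bases. Lss, Sc5d and the first Pmvk start held 1 each, at 62, 24 and 136 bases, and the second Pmvk window, at chr3:89459421-89459570, held none. Motifs were also counted on both strands in the RefSeq windows from 250 bases before to 50 after each start. A gene was counted if any of its windows held the motif. Shares of genes and shares of single windows are therefore unlike measures, and groups of genes are to be read against the tested genes. CCAAT was present in 37.4% of all 32851 windows, in 42.0% of the 11990 tested genes with a window, in 61 of 111 matched genes that fell (55.0%) and in 7 of 22 that rose (31.8%). A FoxO-like motif, TGTTTAC, was in 3.65% of all windows, 3.18% of tested genes, 11 of 111 that fell (9.91%) and 0 of 22 that rose. An SRE-like motif, TCACNCCAC, was in 1.24% of windows, 1.45% of tested genes and 1 of the 111 (0.901%). No window of the 5 sterol genes shown held that motif. The E-box CACGTG was in 7.15% of windows, in 1314 of the 11990 tested genes and in 11 of the 111 (9.91%), a smaller share than among tested genes. The cyclic AMP element TGACGTCA was in 1.79% of windows, 3.27% of tested genes and 5 of the 111 (4.5%). These matches are descriptions of letters in a window and show no binding.

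**Figure D2:**
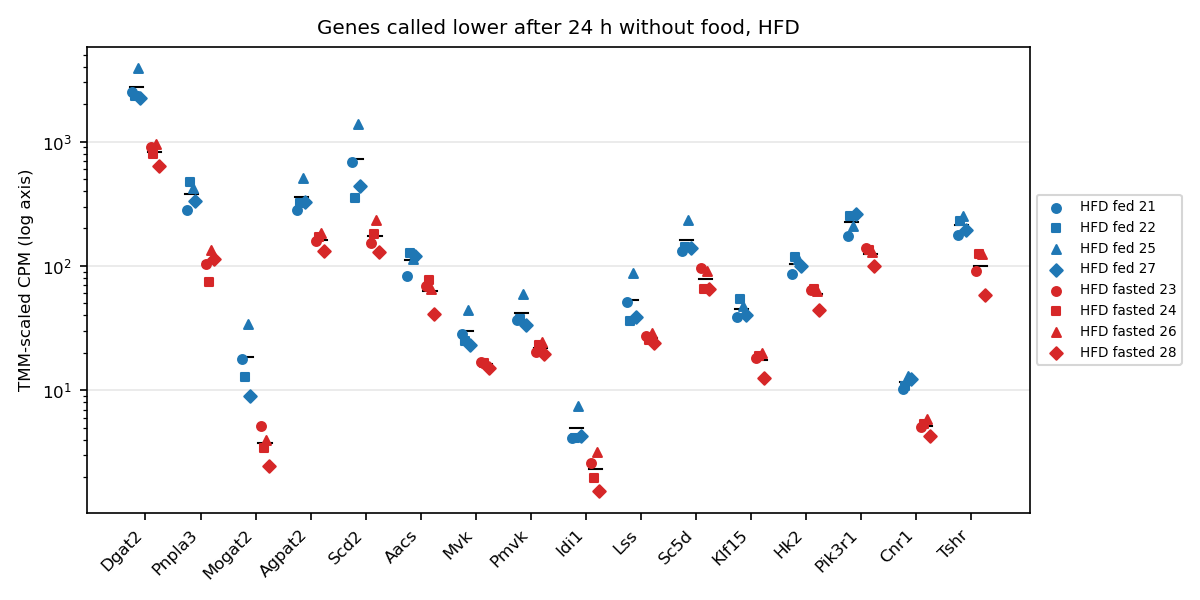
TMM-scaled CPM (log axis) of 16 genes called lower after fasting in each HFD library; blue symbols are fed and red symbols fasted libraries, one shape per library, with black bars at the group means. In every gene shown the lowest fed value is above the highest fasted one, and fed 25 (blue triangle) is the highest value for Dgat2, Mogat2, Agpat2, Scd2, Cnr1, Tshr and the 5 sterol genes.

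Further genes of central metabolism fell, grouped here after their values were seen. Slc25a10, the mitochondrial dicarboxylate carrier, was at 311, 256, 495 and 243 CPM in the fed and 139, 122, 161 and 133 CPM in the fasted libraries (log2 fold change -1.23 ± 0.19 (SE), adjusted p = 0.0055), with no overlap. Slc25a35, another mitochondrial carrier, fell by 1.06 on the log2 scale (adjusted p = 0.0195), and Rpe, the ribulose-phosphate epimerase of the pentose phosphate pathway, by 0.97 (adjusted p = 0.0204). Cyb5b, the cytochrome b5 of the mitochondrial outer membrane, was at 609, 439.9, 1004 and 435 CPM in the fed and 281, 248, 306 and 200.2 CPM in the fasted libraries (log2 fold change -1.26 ± 0.22 (SE), adjusted p = 0.0151). Rpe and the following genes lie outside the rule for naming genes. Cs, citrate synthase, fell from 428 ± 43.6 to 287 ± 14.4 CPM (mean ± SD, n = 4 each; log2 change -0.58; adjusted p = 0.0289). Pank3, which starts coenzyme A synthesis, fell from 558 ± 77.2 to 294 ± 68.7 CPM (log2 change -0.92; adjusted p = 0.0229), and Coasy, which ends it, from 56.4 ± 9.29 to 38.1 ± 1.75 CPM (log2 change -0.57; adjusted p = 0.0193). Sptlc1, a subunit of the first enzyme of sphingolipid synthesis, fell from 57.6 ± 3.63 to 45.5 ± 3.35 CPM (log2 change -0.34; adjusted p = 0.0376). Slc25a10 was called in all 8 fits with 1 library left out, Cyb5b in 7, Coasy in 5, Pank3 in 3, Cs in 1 and Sptlc1 in none.

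Calls were few in the lists of oxidative phosphorylation and of the pyruvate dehydrogenase complex. None of the 47 tested genes of oxidative phosphorylation was called by edgeR (9 had an unadjusted p under 0.05, and DESeq2 called 2 lower), and their median was -0.10. Pdhx, the component that tethers the dihydrolipoamide dehydrogenase to the pyruvate dehydrogenase complex, fell from 42.3 ± 4.77 to 29.4 ± 1.35 CPM (log2 fold change -0.53 ± 0.10 (SE), adjusted p = 0.0204), the only one of 16 genes around that complex to be called. Pdk4, the kinase that switches the complex off in fasting, was at 117, 192, 93.7 and 137 CPM in the fed and 575, 416, 387 and 232 CPM in the fasted libraries. Its groups did not overlap, but the difference did not pass the threshold (log2 fold change 1.58 ± 0.38 (SE), adjusted p = 0.0518). Some genes of the mitochondrial translation apparatus, chosen after their values were seen, fell by small and tight steps. No list of such genes was made, so the share of them that was called is not known. Mrpl12 was at 37.5, 42.9, 44.6 and 36.3 CPM in the fed and 25.9, 28.3, 25.5 and 31.5 CPM in the fasted libraries (log2 fold change -0.54 ± 0.09 (SE), adjusted p = 0.0116) and Mrpl50 at 41.8, 46.9, 50.6 and 42.9 CPM in the fed and 32.0, 29.6, 33.1 and 34.6 CPM in the fasted libraries (log2 fold change -0.49 ± 0.09 (SE), adjusted p = 0.0204). Both are subunits of the mitochondrial ribosome. On the log2 scale Gatb, needed to charge mitochondrial glutamine tRNA, changed by -0.75 ± 0.12 (adjusted p = 0.0101), Ptcd3, a mitochondrial ribosome-associated protein, -0.58 ± 0.09 (adjusted p = 0.00813), and Gfm1, the elongation factor, -0.56 ± 0.13 (adjusted p = 0.0365). Letm1, an ion exchanger of the inner membrane and likewise chosen after its values were seen, fell by 0.46 on that scale (adjusted p = 0.0265), and Higd1a, a small inner membrane protein chosen in the same way, by 0.87 (adjusted p = 0.0055). Chchd10, a protein of the mitochondrial intermembrane space, went the other way, at 34.0, 20.6, 23.8 and 22.4 CPM in the fed and 32.7, 86.8, 51.0 and 44.8 CPM in the fasted libraries (log2 fold change 1.10 ± 0.22 (SE), adjusted p = 0.024). Fasted 24 was the highest, and fasted 23 lay below fed 21.

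Enzymes of amino acid metabolism were also among the genes that fell, most of them grouped here after their values were seen. Gpt, the alanine aminotransferase that links alanine to pyruvate, was at 159.6, 188, 205 and 174 CPM in the fed and 90.0, 80.6, 88.8 and 70.2 CPM in the fasted libraries (log2 fold change -1.14 ± 0.20 (SE), adjusted p = 0.0151). Gpt2, its mitochondrial counterpart, chosen after its values were seen, fell from 194 ± 66.7 to 101 ± 13.2 CPM (log2 change -0.94; adjusted p = 0.0272). Cdo1, cysteine dioxygenase, was at 811, 1371, 1028 and 1064 CPM in the fed and 562, 538, 554 and 383 CPM in the fasted libraries (log2 fold change -1.07 ± 0.23 (SE), adjusted p = 0.03). Both steps from proline to glutamate were called, again chosen after their values were seen: Prodh, proline dehydrogenase (log2 fold change -0.89 ± 0.20 (SE), adjusted p = 0.0352), and Aldh4a1, which follows it (log2 fold change -0.68 ± 0.15 (SE), adjusted p = 0.0306). Gcsh, the lipoyl carrier of glycine cleavage, also outside the rule, fell by 0.52 on the log2 scale (adjusted p = 0.0202). In the breakdown of branched-chain amino acids 1 of 23 tested genes fell, Mccc2, a subunit of the leucine pathway carboxylase, from 86.5 ± 14.4 to 51.7 ± 10.6 CPM (log2 change -0.74; adjusted p = 0.0266). All 23 genes of that list had a fold change under 0, from -0.74 to -0.02 (median -0.38), against 0.06 for all genes tested. Bcat2, the first enzyme of the pathway (log2 change -0.63; adjusted p = 0.102), and Dbt, a core subunit of the complex after it (log2 change -0.69; adjusted p = 0.136), were not called. Without fasted 28 the list median was -0.24, and without fed 25 it was -0.43. Nnmt, which methylates nicotinamide, was at 145, 159, 239.6 and 158 CPM in the fed and 79.8, 72.0, 75.8 and 79.6 CPM in the fasted libraries (log2 fold change -1.19 ± 0.23 (SE), adjusted p = 0.0217), with fed 25 far above the other 3 fed libraries and the 4 fasted values within a narrow band.

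Glucose handling and insulin signalling changed in few genes. Hk2, the insulin-regulated hexokinase of muscle and fat, was at 86.5, 118, 113 and 100.2 CPM in the fed and 64.3, 64.7, 63.3 and 44.6 CPM in the fasted libraries (log2 fold change -0.82 ± 0.13 (SE), adjusted p = 0.00671), and Pfkfb1, which sets the level of fructose 2,6-bisphosphate, at 27.9, 48.3, 32.3 and 34.4 CPM in the fed and 27.8, 22.2, 21.8 and 17.5 CPM in the fasted libraries (log2 fold change -0.68 ± 0.16 (SE), adjusted p = 0.0445). These were the 2 of 24 tested genes of glucose uptake and glycolysis that were called, and the list median was -0.02. Slc2a4, the insulin-responsive glucose transporter, did not overlap between groups but was not called (log2 fold change -0.65 ± 0.21 (SE), adjusted p = 0.146). Pik3r1, the regulatory subunit of phosphoinositide 3-kinase, was at 174, 252, 211 and 262 CPM in the fed and 139.7, 133, 129 and 100.3 CPM in the fasted libraries (log2 fold change -0.84 ± 0.14 (SE), adjusted p = 0.0116), the 1 called gene of 25 tested in insulin signalling. Klf15, a transcription factor of amino acid and lipid metabolism that glucocorticoids induce in many tissues, was at 39.2, 54.7, 47.6 and 40.4 CPM in the fed and 18.2, 18.7, 20.0 and 12.7 CPM in the fasted libraries (log2 fold change -1.38 ± 0.18 (SE), adjusted p = 0.00277). Its 4 fasted values lay at or under 20.0 CPM and its 4 fed values at or above 39.2 CPM. Klf15 and Pik3r1 also belong to the glucocorticoid-responsive list, in which Sgk1 rose, at 62.7, 62.5, 74.3 and 62.2 CPM in the fed and 129, 96.4, 79.5 and 142 CPM in the fasted libraries (log2 fold change 0.77 ± 0.18 (SE), adjusted p = 0.0445), and 17 of 20 tested genes were not called. In the clock list Clock itself fell by 0.41 on the log2 scale (adjusted p = 0.0289), the 1 call in 19. Hk2, Pik3r1 and Klf15 were called in all 8 fits with 1 library left out and Pfkfb1, Sgk1 and Clock in 1 each.

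Several receptors and their partners at the cell membrane fell, grouped here after their values were seen. Cnr1, the cannabinoid receptor CB1, was at 10.2, 10.8, 13.0 and 12.4 CPM in the fed and 5.07, 5.39, 5.89 and 4.27 CPM in the fasted libraries (log2 fold change -1.17 ± 0.13 (SE), adjusted p = 0.000743), 1 of the 2 smallest adjusted p-values of the comparison. Its fed values spanned under 3 CPM and its fasted values under 2 CPM, far apart from each other. Tshr, the thyrotropin receptor, was at 178, 229, 253 and 195 CPM in the fed and 91.3, 124, 125 and 58.7 CPM in the fasted libraries (log2 fold change -1.10 ± 0.25 (SE), adjusted p = 0.0376), with fasted 28 the lowest. Mrap, the partner protein that brings the ACTH receptor to the surface, was at 131, 137, 237 and 135 CPM in the fed and 78.2, 84.8, 80.9 and 78.5 CPM in the fasted libraries (log2 fold change -0.99 ± 0.22 (SE), adjusted p = 0.0376). Ptger3, the prostaglandin E2 receptor that restrains lipolysis, was chosen after its values were seen and fell from 62.6 ± 12.3 to 32.8 ± 5.17 CPM (log2 change -0.93; adjusted p = 0.0386). Rgs7bp, which anchors G protein regulators at the membrane, was at 14.6, 23.0, 21.2 and 23.8 CPM in the fed and 6.04, 7.91, 11.1 and 2.68 CPM in the fasted libraries (log2 fold change -1.57 ± 0.31 (SE), adjusted p = 0.0217). Rgs5, a G protein regulator typical of pericytes, was at 141, 189.7, 166 and 153 CPM in the fed and 83.3, 52.9, 89.6 and 27.9 CPM in the fasted libraries (log2 fold change -1.36 ± 0.29 (SE), adjusted p = 0.0319), the endothelial marker sum in the same libraries being 1782, 2453, 1824 and 2208 CPM in the fed and 2073, 2058, 1995 and 1381 CPM in the fasted libraries. Fasted 28 was lowest in both, and the part of vessel cells in the Rgs5 result was not tested. On the log2 scale Plcb1, a phospholipase C, changed by -1.07 ± 0.21 (adjusted p = 0.0215), and Trhde, which cleaves thyrotropin-releasing hormone, -1.14 ± 0.25 (adjusted p = 0.0352). Fam150b, the secreted ligand of the receptor kinase ALK, was at 7.75, 9.14, 7.11 and 7.81 CPM in the fed and 3.55, 2.22, 3.03 and 1.92 CPM in the fasted libraries (log2 fold change -1.57 ± 0.25 (SE), adjusted p = 0.00758). Cnr1 and Fam150b were called in all 8 fits with 1 library left out, Plcb1 in 5, Rgs7bp in 3, Trhde in 2, Rgs5 and Tshr in 1, and Mrap and Ptger3 in none.

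Other genes with large falls had no shared role. Trabd2b, a membrane protease that inactivates Wnt proteins, was at 81.3, 62.2, 122 and 60.5 CPM in the fed and 20.9, 20.0, 29.3 and 16.9 CPM in the fasted libraries (log2 fold change -1.90 ± 0.27 (SE), adjusted p = 0.004), 3.74-fold lower after fasting, and was called in every fit with 1 library left out. Grid1, a glutamate receptor of the delta type, was at 7.62, 6.25, 16.8 and 6.00 CPM in the fed and 1.98, 2.91, 2.95 and 1.26 CPM in the fasted libraries (log2 fold change -2.003 ± 0.37 (SE), adjusted p = 0.0193), and Paqr9, of the progestin and adipoQ receptor family, at 110.3, 83.6, 236 and 81.6 CPM in the fed and 55.7, 38.6, 45.02 and 21.5 CPM in the fasted libraries (log2 fold change -1.67 ± 0.37 (SE), adjusted p = 0.0351). Fed 25 was the highest in all 3. A pair of inhibitors of the cyclin-dependent kinases of the G1 phase fell. Cdkn2c was at 106, 129, 138 and 114 CPM in the fed and 53.0, 39.98, 47.7 and 53.6 CPM in the fasted libraries (log2 fold change -1.33 ± 0.18 (SE), adjusted p = 0.00364) and Cdkn2b at 10.5, 9.20, 22.4 and 9.39 CPM in the fed and 4.77, 5.48, 5.21 and 4.38 CPM in the fasted libraries (log2 fold change -1.38 ± 0.29 (SE), adjusted p = 0.0291). None of 25 tested cell cycle genes was called by edgeR (4 at an unadjusted p under 0.05) or by DESeq2. Among 22 tubulins and tubulin folding factors 2 fell. Tuba1a was at 569, 371, 1153 and 333 CPM in the fed and 206, 209.7, 202 and 155 CPM in the fasted libraries (log2 fold change -1.65 ± 0.33 (SE), adjusted p = 0.0229) and Tuba1b at 137, 143, 166 and 122 CPM in the fed and 81.8, 75.0, 63.6 and 89.2 CPM in the fasted libraries (log2 fold change -0.88 ± 0.13 (SE), adjusted p = 0.00386). These 2 genes are near-identical copies, so the split of reads between them is uncertain. Rhbdl3, of the rhomboid protease family, fell by 1.34 on the log2 scale (adjusted p = 0.00766), Cnnm2, a magnesium-handling membrane protein, by 1.19 (adjusted p = 0.0106), and AI464131, a glycosidase gene outside the rule, by 1.25 (adjusted p = 0.00202). Fcrls, a receptor-like gene of macrophages, was at 42.8, 42.6, 48.8 and 36.3 CPM in the fed and 23.2, 16.9, 23.3 and 14.2 CPM in the fasted libraries (log2 fold change -1.13 ± 0.26 (SE), adjusted p = 0.0376). It was lowest in fasted 28, where the lipid-associated macrophage sum was highest, at 21964 CPM. Fasted 24, with the lowest such sum (1209 CPM), had the next lowest Fcrls value.

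The remaining genes of the 40 largest falls are Odf3l1, Stxbp6, Cdh23, Fam217b, Fam69b and Mir6392 together with Col15a1, a basement membrane collagen. Col15a1 was at 944, 865, 1202 and 679 CPM in the fed and 530.0, 463, 459.7 and 389 CPM in the fasted libraries (log2 fold change -1.002 ± 0.23 (SE), adjusted p = 0.0376), the 1 call among 17 collagens, whose median was -0.44. The fold changes of the others ran from -1.90 (Mir6392, counted here as a gene in poly-A libraries, which does not measure the mature miRNA) to -0.99 (Fam69b). Cdh23, a cadherin, was at 11.4, 16.2, 10.6 and 11.9 CPM in the fed and 5.94, 7.21, 4.74 and 3.67 CPM in the fasted libraries (log2 fold change -1.21 ± 0.24 (SE), adjusted p = 0.0229), and Stxbp6, a syntaxin-binding protein, at 15.2, 20.8, 20.5 and 18.5 CPM in the fed and 7.86, 8.04, 13.6 and 3.56 CPM in the fasted libraries (log2 fold change -1.18 ± 0.26 (SE), adjusted p = 0.0356). In both, every fed library was above every fasted one.

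Fewer genes rose, and 2 of them belong to the lipid droplet. Hilpda, which inhibits the triglyceride lipase ATGL, was at 18.7, 18.7, 28.9 and 21.1 CPM in the fed and 48.0, 54.5, 43.9 and 70.1 CPM in the fasted libraries (log2 fold change 1.31 ± 0.27 (SE), adjusted p = 0.024). Fasted 28 was the highest and the ranges were apart. Plin5, which coats lipid droplets and ties them to mitochondria, was at 12.6, 13.5, 11.4 and 13.4 CPM in the fed and 22.0, 42.0, 28.4 and 15.4 CPM in the fasted libraries (log2 fold change 1.08 ± 0.24 (SE), adjusted p = 0.0346). Here fasted 24 was the highest, and fasted 28 was close to the fed range. Hilpda is the 1 call among 22 tested lipolysis genes and Plin5 the 1 call among 12 lipid droplet proteins, and both are also the 2 calls among 19 PPAR targets, a list with a median of 0.54. Pnpla2, the gene of ATGL itself (log2 change 0.04; adjusted p = 0.959), Lipe, hormone-sensitive lipase (log2 change -0.37; adjusted p = 0.467), and Angptl4, an inhibitor of lipoprotein lipase (log2 change -0.27; adjusted p = 0.61), overlapped between groups and were not called. Vnn1, another PPAR target, was at 12.8, 34.6, 6.85 and 35.7 CPM in the fed and 59.3, 99.4, 61.8 and 26.8 CPM in the fasted libraries (log2 change 1.46; adjusted p = 0.121). Plin5 was called in 1 and Hilpda in 2 of the 8 fits with 1 library left out.

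Some genes of the matrix and cell surface rose, grouped here after their values were seen, whereas Col15a1 and the cadherin Cdh23, described above, fell. Wisp2, a secreted CCN protein of fat progenitors, was at 34.4, 23.4, 37.0 and 40.4 CPM in the fed and 176, 113, 164 and 96.6 CPM in the fasted libraries (log2 fold change 2.02 ± 0.40 (SE), adjusted p = 0.0229), with all fasted values at or above 96.6 CPM and all fed values at or under 40.4 CPM. Mmp11, a stromelysin, was at 39.99, 42.8, 37.6 and 56.2 CPM in the fed and 145, 60.2, 68.9 and 191 CPM in the fasted libraries (log2 fold change 1.40 ± 0.29 (SE), adjusted p = 0.0271), with fasted 23 and 28 far above fasted 24 and 26. Those are also the 2 fasted libraries with the largest lipid-associated macrophage sums, and their part in the result was not tested. Wisp2 and Mmp11 were the 2 calls among 26 matrix remodelling genes, whose median was 0.33. Mfap2, a protein of elastic microfibrils, was at 10.4, 5.36, 7.92 and 6.88 CPM in the fed and 13.7, 12.3, 14.3 and 16.0 CPM in the fasted libraries (log2 fold change 0.88 ± 0.21 (SE), adjusted p = 0.0466), and Cdh11, a mesenchymal cadherin, at 8.83, 8.30, 10.5 and 14.6 CPM in the fed and 17.3, 21.9, 16.7 and 24.2 CPM in the fasted libraries (log2 fold change 0.92 ± 0.21 (SE), adjusted p = 0.0359). The stromal progenitor sum over 12 markers overlapped between groups, at 3598, 3424, 3927 and 3827 CPM in the fed and 3946, 2922, 3488 and 3467 CPM in the fasted libraries.

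Signalling genes that rose included a phosphatase, binding proteins and kinases. Dusp9, a MAP kinase phosphatase, was at 15.8, 14.4, 17.0 and 14.5 CPM in the fed and 50.3, 82.3, 66.3 and 21.5 CPM in the fasted libraries (log2 fold change 1.84 ± 0.35 (SE), adjusted p = 0.0204), with fasted 28 nearest to the fed libraries. Igfbp3, which binds insulin-like growth factors, was at 46.9, 33.4, 31.7 and 34.7 CPM in the fed and 111, 76.8, 89.6 and 60.5 CPM in the fasted libraries (log2 fold change 1.20 ± 0.20 (SE), adjusted p = 0.0118), the 1 call among 12 genes of the IGF axis. Plk3, a stress-induced polo-like kinase, was at 8.20, 8.14, 8.98 and 6.46 CPM in the fed and 13.5, 16.5, 12.8 and 26.1 CPM in the fasted libraries (log2 fold change 1.11 ± 0.21 (SE), adjusted p = 0.0209), and Maff, a small MAF factor, at 13.5, 11.4, 17.2 and 10.9 CPM in the fed and 26.0, 35.7, 25.8 and 17.2 CPM in the fasted libraries (log2 fold change 0.98 ± 0.23 (SE), adjusted p = 0.0473). For Maff, fasted 28 did not exceed fed 25. On the log2 scale Il15ra, the interleukin 15 receptor subunit, changed by 0.63 ± 0.14 (adjusted p = 0.0343). Piezo2, a stretch-gated channel, was at 5.55, 4.20, 4.67 and 4.51 CPM in the fed and 7.46, 9.08, 8.76 and 15.2 CPM in the fasted libraries (log2 fold change 1.09 ± 0.24 (SE), adjusted p = 0.0343), with fasted 28 well above the rest. Slc22a14, an organic cation transporter family member, was at 2.15, 3.78, 2.64 and 3.21 CPM in the fed and 8.12, 14.4, 8.71 and 3.999 CPM in the fasted libraries (log2 fold change 1.58 ± 0.34 (SE), adjusted p = 0.0289). The other genes that rose by small steps were Rnf122, Cacnb3, Nlgn2, Xpa, Plekhg3, Mpp6, Rabgap1l, Ddah2 and Atxn1, with log2 fold changes from 0.39 (Atxn1) to 0.88 (Rnf122). Igfbp3, Plekhg3 and Rnf122 were called in 7 of the 8 fits with 1 library left out, Dusp9, Plk3 and Wisp2 in 4, and Mmp11 in 3.

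Acta1, skeletal muscle actin, had the largest rise among called genes with a mean of at least 1 CPM that carry a regular name. It was at 10.1, 14.3, 17.2 and 8.74 CPM in the fed and 66.6, 56.3, 29.6 and 63.3 CPM in the fasted libraries (log2 fold change 2.101 ± 0.48 (SE), adjusted p = 0.0381), with fasted 26 the lowest fasted library but still above every fed one. None of the other genes of the skeletal muscle list was called. Of its defining genes, Ckm was at most 0.342 CPM over the 8 libraries, Myh4 at most 0.683 CPM and Mylpf at most 0.913 CPM. Myl1, a myosin light chain, was higher, at 14.5, 22.2, 17.2 and 17.6 CPM in the fed and 12.4, 12.6, 12.5 and 11.9 CPM in the fasted libraries (adjusted p = 0.221), Neb, nebulin, ranged from 2.74 to 6.58 CPM and Actn3, an actinin, from 1.27 to 3.95 CPM. Ttn, titin, was low but did not overlap between groups, at 0.870, 0.998, 1.07 and 0.930 CPM in the fed and 1.83, 2.04, 1.15 and 1.59 CPM in the fasted libraries (adjusted p = 0.542). Of the 9 tested list members, Acta1 and Ttn had every fasted library above every fed one. Myl1 and Myh1, the latter at most 0.457 CPM, had every fed library above every fasted one. Among all genes tested these shares were 2.24% and 6.21%. Acta1 was called in 1 of the 8 fits with 1 library left out. Fut1, a fucosyltransferase outside the rule for naming genes, was called on very few reads, 8, 13, 10 and 0 in the fasted libraries and 0 in each fed one, so no fold change is given.

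**Figure D3:**
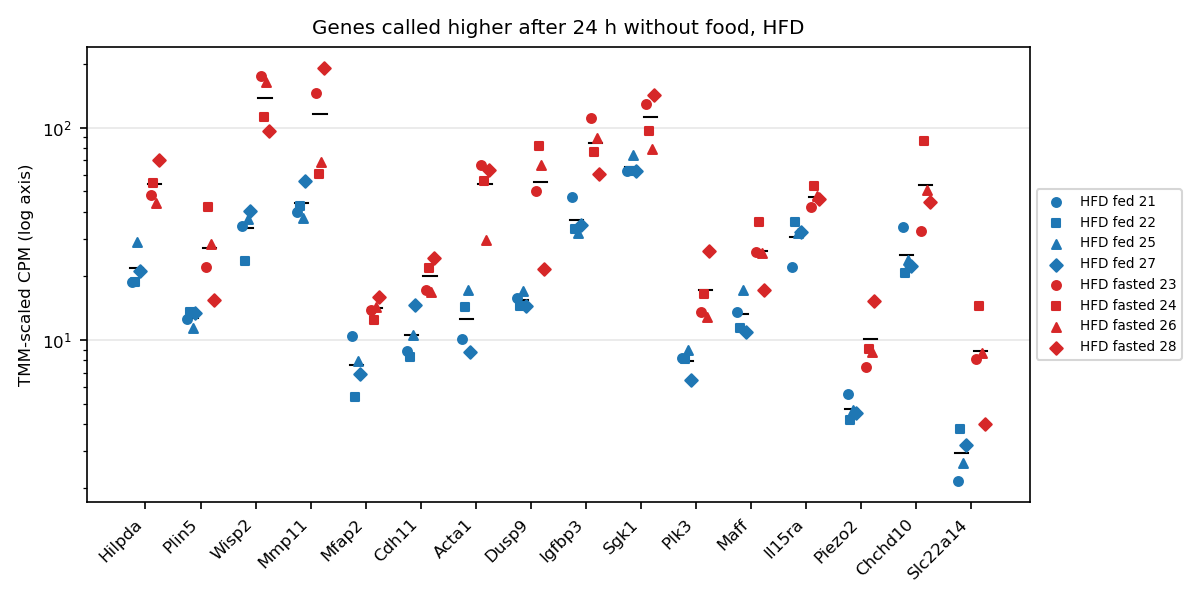
TMM-scaled CPM (log axis) of 16 genes called higher after fasting in each HFD library; blue symbols are fed and red symbols fasted libraries, one shape per library, with black bars at the group means. Fasted 28 (red diamond) is the highest fasted library for Hilpda, Mmp11, Mfap2, Cdh11, Sgk1, Plk3 and Piezo2 and the lowest for Plin5, Wisp2, Dusp9, Igfbp3, Maff and Slc22a14.

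Across the 28 pathway lists, 12 held calls in the lower direction and 7 in the higher one, and no list had more than 5. Read against the 1.03% of all tested genes called lower, 4 of 17 triglyceride genes and 5 of 26 sterol genes are the largest counts. Lists without a call by edgeR were fatty acid uptake, glycogen, adipokines, fatty acid oxidation, thermogenic genes, oxidative phosphorylation, autophagy, lysosome, the response to endoplasmic reticulum stress and cell cycle. Their genes at an unadjusted p under 0.05 numbered 1, 7, 5, 6, 2, 9, 3, 1, 7 and 4 in that order. Of all 16015 genes tested, 2375 were under that level. In the same order, calls by DESeq2 in either direction numbered 1, 5, 2, 1, 1, 2, 1, 0, 2 and 0. Lep, the gene of leptin, was at 3835, 2478, 6579 and 2652 CPM in the fed and 2309, 1095, 1848 and 1592 CPM in the fasted libraries, without overlap but not called (log2 fold change -1.18 ± 0.37 (SE), adjusted p = 0.138), and Adipoq, the gene of adiponectin, overlapped at 2369, 4138, 2359 and 3645 CPM in the fed and 2625, 3222, 2892 and 1727 CPM in the fasted libraries (log2 change -0.26; adjusted p = 0.681). Pck1, which feeds glyceroneogenesis in fat, ranged from 444 to 3328 CPM and overlapped (log2 change 0.30; adjusted p = 0.784). In the glycogen list Pgm2, a phosphoglucomutase (log2 change -0.74; adjusted p = 0.0681), and Ppp1r3d, a glycogen-targeting subunit (log2 change -0.75; adjusted p = 0.0687), had separate groups but were not called.

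**Figure D4:**
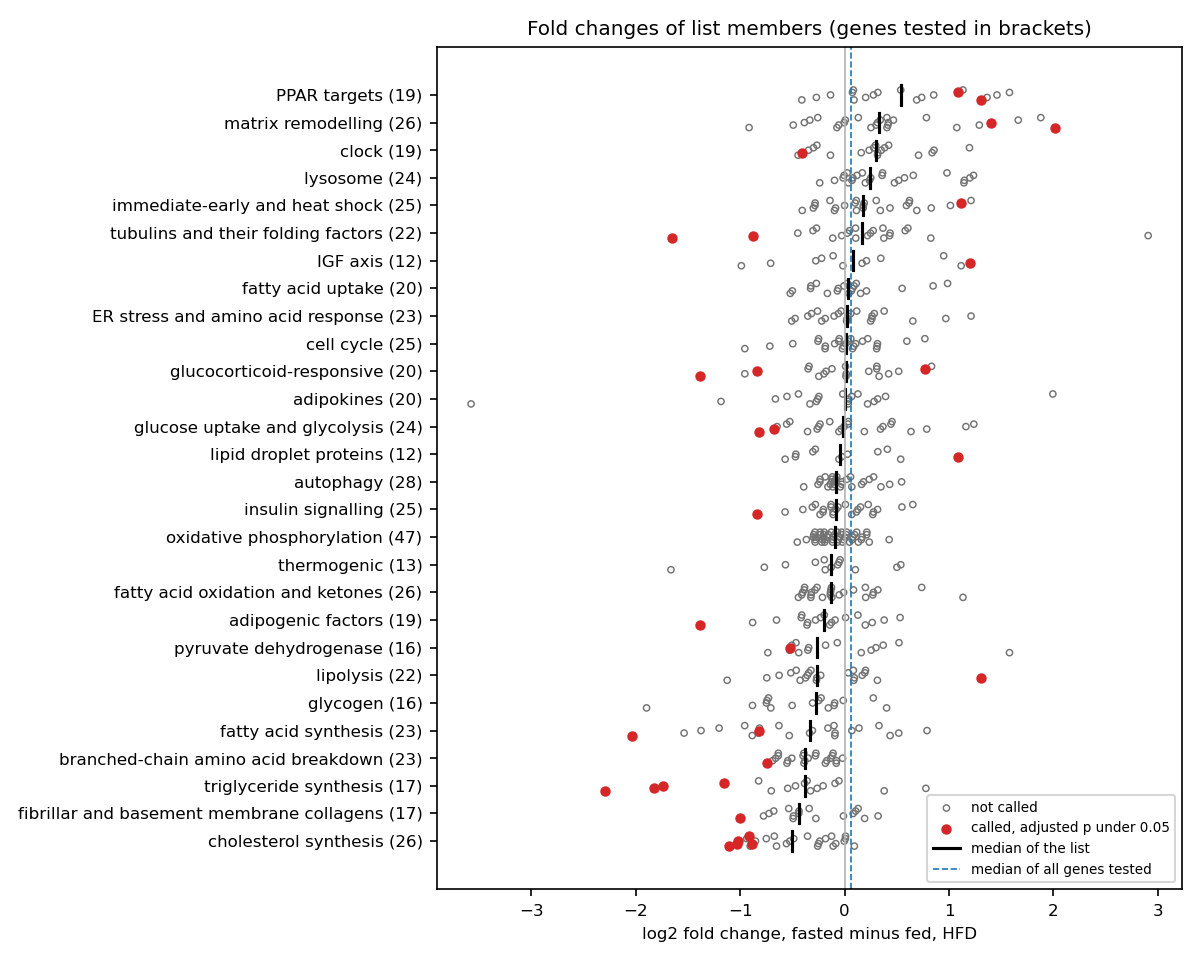
Log2 fold change (fasted minus fed, HFD) of each tested member of the 28 pathway lists, ordered by list median; grey circles are genes not called, red points called genes, black bars list medians and the dashed line the median of all genes (0.06). Medians run from -0.51 for cholesterol synthesis to 0.54 for PPAR targets, and the lists with the most called genes are cholesterol synthesis (5) and triglyceride synthesis (4), all of them lower.

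Across the 16 lists of cell type markers edgeR called only Acta1, higher, and Col15a1, lower, which is also listed for stromal progenitors. None of the 14 lipid-associated macrophage genes was called by edgeR or DESeq2 (3 had an unadjusted p under 0.05), although their median log2 fold change was 1.14 and all 14 were above 0. Without fasted 28 that median was 0.18. Mcoln3, among the 14, was at 8.66, 0.631, 0.355 and 0.325 CPM in the fed and 0.406, 10.1, 10.2 and 0.219 CPM in the fasted libraries. It was thus high in fed 21, fasted 24 and fasted 26, the libraries with more tract epithelium RNA, and lowest in fasted 28. Lgals3, a galectin chosen after its values were seen, was at a log2 change of 1.77 with an adjusted p of 0.292 with all 8 libraries and a log2 fold change of 0.27 without fasted 28. General macrophage markers had a median of 0.02 and no call, with sums of 2238, 1567, 2534 and 2175 CPM in the fed and 2954, 1396, 1654 and 3758 CPM in the fasted libraries. T cell sums were 78.6, 42.2, 78.5 and 71.0 CPM in the fed and 155, 36.0, 65.9 and 203 CPM in the fasted libraries, but most of the high sums came from Il7r, the interleukin 7 receptor, at 57.8, 17.4, 60.9 and 41.0 CPM in the fed and 116, 13.5, 32.9 and 174 CPM in the fasted libraries. Without Il7r the T cell sum was 20.8, 24.8, 17.6 and 30.1 CPM in the fed and 38.4, 22.5, 33.0 and 28.2 CPM in the fasted libraries, highest in fasted 23. Mast cell sums were 276, 100.3, 104 and 253 CPM in the fed and 389.7, 112, 114 and 511 CPM in the fasted libraries, highest in fasted 28 and next in fasted 23. Neither the T cell nor the mast cell list had a call by edgeR or DESeq2, and neither had a gene at an unadjusted p under 0.05. The 16 adipocyte markers had a median of -0.37 and no call by edgeR (2 lower by DESeq2). The part of adipocyte RNA in the genes that fell was not tested.

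Single libraries weighed on the count of calls. All 195 genes kept their sign when any 1 of the 8 libraries was left out. In 191 of them the fed and fasted values did not overlap, so leaving out a library could hardly reverse the sign. Counts of calls fell to between 23 and 141: without fed 21, 22, 25 and 27 they were 85, 72, 23 and 100, and without fasted 23, 24, 26 and 28 they were 59, 63, 141 and 63. Fed 25 had the highest fed value in 120 of the 165 genes that fell, and fasted 28 the lowest fasted value in 116. In all 8 of these fits 20 of the genes were called, all of them lower after fasting: Trabd2b, Pnpla3, Dgat2, Fam150b, Klf15, Rhbdl3, Cdkn2c, AI464131, Slc25a10, Cnnm2, Cnr1, Tuba1b, Higd1a, Tlcd1, Entpd6, Pik3r1, Hk2, Gatb, Arhgap24 and Ptcd3. Another 26 were called in none. In a fit of the 8 HFD libraries alone, with 6 residual degrees of freedom in place of 15, only Cdkn2c was called (log2 fold change -1.30, adjusted p = 0.0359) and 1612 genes had an unadjusted p under 0.05.

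The libraries rich in tract RNA were also left out. Without the 5 richest in epididymis and sperm-cell genes, of which fasted 24 has HFD, 143 genes were called, 125 lower and 18 higher. Without those and 3 more rich in Cdh16, which leaves fed 22, 25 and 27 against fasted 23 and 28, 365 fell (2.39% of 15257) and 545 rose (3.57%). Of the 195 genes, 140 were also called in that fit. All 195 kept their sign, which says little because almost all had groups without overlap. The 2 fasted libraries that remain are those with the largest lipid-associated macrophage sums, 7615 and 21964 CPM against 1514 to 3644 CPM in the 3 fed ones, and 5 of the 14 markers were then called higher, as were 6 of 24 lysosome genes and 4 of 10 mast cell genes. The part of macrophage RNA in the 545 genes was not tested. With the HFD libraries alone and the same 3 removed, a setting added after the data were seen, no gene was called and 2544 had an unadjusted p under 0.05.

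Set beside the Ensure model, most genes that fell with HFD fell there too. Fasting with Ensure called 1690 genes higher (10.6%) and 1565 lower (9.77%) among the same 16015, from 11 libraries. Of the 165 genes that fell with HFD, 148 also fell with Ensure (89.7% of the HFD calls, 9.46% of the Ensure calls). Of the 30 that rose, 19 also rose with Ensure (63.3% and 1.12%), and no gene was called in opposite directions. Dgat2 had a log2 fold change of -1.74 with HFD and -1.84 ± 0.24 with Ensure (adjusted p = 0.000104), Cnr1 -1.17 and -1.21 ± 0.12 with Ensure (adjusted p = 1.22e-05), and Wisp2 2.02 and 1.86 ± 0.34 with Ensure (adjusted p = 0.00127). Tested directly, the difference between the responses was called for 0 of 16015 genes by edgeR (1234 at an unadjusted p under 0.05, smallest adjusted p 0.302), for 70 by DESeq2 and for 1170 by limma with sample weights. The diets also differ in sequencing lane, 7 for HFD and 5, 6 or 7 for Ensure. With Ensure, fasted 2, 5, 7 and 8 carried lane 5 and fasted 17 lane 6. Fed 1 carried lane 5, fed 9, 10, 12 and 16 lane 6, and fed 18 lane 7. Lane and fasting are thus largely confounded with Ensure. They cannot be fully told apart in the Ensure calls, the overlap or the difference between diets.

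The genes called with HFD but not with Ensure are therefore not shown to differ by the test used throughout. Of the 27 with a mean of at least 1 CPM, 24 had the same sign with Ensure, and 18 had an unadjusted p under 0.05 for the difference. Hilpda rose by 1.31 with HFD and had -0.23 ± 0.23 with Ensure (adjusted p = 0.494), a difference of 1.54 ± 0.35 (unadjusted p = 0.000382, adjusted p = 0.351). For Plk3 the difference was 1.32 ± 0.28 (unadjusted p = 0.000203, adjusted p = 0.351), for Fam150b -1.32 ± 0.32 (unadjusted p = 0.000633, adjusted p = 0.351) and for Cdh23 -1.28 ± 0.31 (unadjusted p = 0.000722, adjusted p = 0.351). Cdh11 had 0.03 ± 0.18 with Ensure (adjusted p = 0.915) and a difference of 0.89 ± 0.27 (unadjusted p = 0.00429, adjusted p = 0.504). All 27 had an adjusted p for the difference of at least 0.351.

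**Figure D5:**
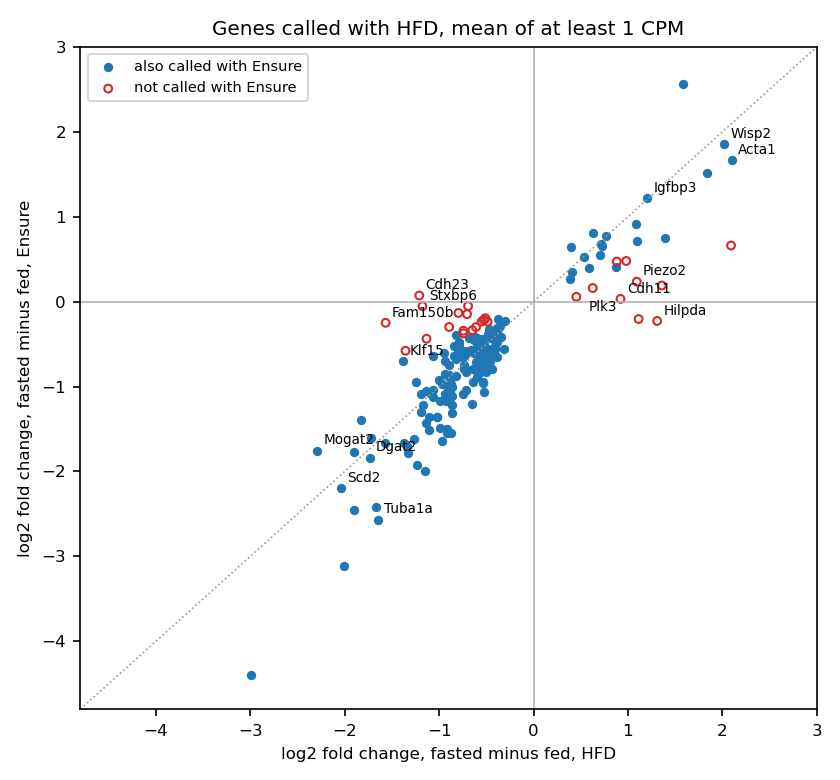
Log2 fold change after fasting with HFD (x axis) and with Ensure (y axis) for the 193 genes called with HFD at a mean of at least 1 CPM; blue points were also called with Ensure (166) and open red circles were not (27). The dotted line marks equal changes; Hilpda, Plk3 and Cdh23 have an opposite sign with Ensure.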

How the data were processed

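The labels' protocols give RNeasy extraction, poly-A selection, TruSeq RNA libraries and HiSeq2000 sequencing. Versions listed in the submitters' processing notes are bcl2fastq 1.8.4, TopHat2 2.1 and HTSeq 0.6.1, and the build listed is mm9. Neither settings nor strand are stated there, so reads of overlapping or near-identical genes are uncertain. The authors deposited whole-number read counts per gene, not normalized. HTSeq's summary lines were left out of library sizes: in the HFD libraries reads outside genes were 13.3 to 17.3%, reads that were not unique 20.7 to 27.7% and ambiguous reads 0.783 to 0.893%.

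Groups came from the labels, and counts in genes were 12.82 to 22.55 M per library. One model with 4 groups was fitted to the 19 libraries in edgeR 4.0.16 under R 4.3.3 and tested with the quasi-likelihood F test, after TMM scaling and filterByExpr (minimum count 10). Calls are at a Benjamini-Hochberg adjusted p under 0.05 over all genes tested, and a standard error is the absolute log2 estimate over the root of F. No library pair in a group agreed within sampling noise. The test was checked on simulated counts.

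Named were all genes called higher and the 40 called lower with the largest fold, at a mean of at least 1 CPM and without predicted names, then the called members of 28 pathway lists, filled to 4 members per list by the smallest p, and 14 fixed genes. Not all uncalled members are printed, and some genes that the rule names are not reported here. The 16 marker lists were summed per library. The comparison, lists and rule were chosen with earlier results of these data known. Alternatives were other scalings and filters, DESeq2 1.42.0, limma 3.58.1 voom with sample quality weights, lane as a term, and fits with libraries left out. RefSeq promoter windows, on a later build than the counts, were found for 11990 of the tested genes.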

Additional observations from a re-analysis of the deposited data

Results flagged for a closer look

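Within each group of 4 HFD libraries, the gap between an extreme value and its neighbour was set against the whole range of the group (Dixon's ratio, at its 95% critical value). Chance alone passes about 1 in 20 groups, and 286 such groups were looked at, for the genes named here and the marker sums, of which 32 passed.

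Fed 25 stood far above the other 3 fed libraries in 15 of the genes: Dgat2 at 3894 CPM, Nnmt at 239.6 CPM, Mrap at 237 CPM, Sc5d at 232 CPM, Sgk1 at 74.3 CPM, Coasy at 70.2 CPM, Pmvk at 58.9 CPM, Tlcd1 at 41.6 CPM, Higd1a at 30.9 CPM, Rhbdl3 at 26.0 CPM, Cdkn2b at 22.4 CPM, Grid1 at 16.8 CPM, Fam217b at 15.9 CPM, Odf3l1 at 9.54 CPM and Idi1 at 7.41 CPM. All but Sgk1 fell after fasting. In the same library the neutrophil marker sum, at 43.5 CPM, was above the 14.9 to 19.6 CPM of the other fed libraries. Most of that sum was S100a8, at 8.66, 4.73, 29.6 and 5.25 CPM in fed 21, 22, 25 and 27. Csf3r, the next largest in fed 25, was at 9.41, 8.30, 11.5 and 10.8 CPM in the same order. Every other marker in the sum was at or under 1.12 CPM in fed 25. That was the value of S100a9, which was at 1.16 CPM in fed 27. The part of neutrophil RNA in the gene values above was not tested.

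Fasted 28 stood far below the other 3 fasted libraries for Cdo1 at 383 CPM, Tuba1a at 155 CPM, Acly at 121 CPM, Pgm2 at 75.1 CPM, Slc2a4 at 65.4 CPM, Hk2 at 44.6 CPM, Dbt at 37.4 CPM and AI464131 at 14.1 CPM. It stood far above them for Spp1, the osteopontin gene of lipid-laden macrophages, at 287 CPM against 16.3 to 37.2 CPM. Its endothelial sum of 1381 CPM and smooth muscle sum of 503 CPM were also below those of the other fasted libraries (1995 to 2073 CPM and 975 to 989 CPM).

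In fed 21 the tract epithelium sum was 304 CPM, with Cdh16 at 41.9 CPM and Pax8 at 14.1 CPM against at most 4.57 and 1.07 CPM in the other fed libraries. Trem2, a receptor of lipid-associated macrophages, was low in fed 22, at 41.3 CPM against 109 to 120.2 CPM. The nerve sum in fasted 23 was 77.1 CPM against 56.8 to 59.3 CPM.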

How the results depend on the processing

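The 195 calls (30 higher, 165 lower) moved under the following settings. With lane as a term there were 62 (10 higher, 52 lower), and with the HFD libraries alone 1 (0 higher, 1 lower). Without the 5 libraries rich in epididymis and sperm-cell genes 18 were higher, and without the 8 rich in those genes or Cdh16 there were 910 (545 higher, 365 lower). With the HFD libraries alone and without fed 21, fasted 24 and fasted 26, a setting chosen after seeing the data, there were 0 in either direction. DESeq2 called 643 (164 higher, 479 lower) and limma voom with sample weights 2974 (1172 higher, 1802 lower). Leaving out each HFD library in turn gave 23 to 141 calls, 0 to 36 higher and 23 to 105 lower, the lowest totals without fed 25; the difference between diets then stayed at 0 each time. That difference was called for 70 genes by DESeq2, 1170 by limma and 1 (Mttp) without the 8 libraries, against 0. Other scalings and filters gave 160 to 216 calls. The share of calls that were higher moved from 15.4% to 59.9% without the 8, 39.4% with limma, 30.2% without fasted 28, 25.5% without fasted 26 and 25.5% with DESeq2. Limma's tested fold changes had a median of -0.05 against 0.06, and library size alone gave 0.11. Of the 76 called genes with names given by the rule, 76 remained with DESeq2, 73 with limma, 58 without the 8 libraries, 45 without the 5, 31 with lane and 14 to 59 with 1 library left out. No called gene that is named here reversed its direction in any of these settings. Almost all had groups without overlap, so a reversal could hardly occur. The causes were not tested. No paired analysis was possible because the title numbers are not shared between groups. Depth limits genes near the floor, such as Fut1 and Asb12 (16 to 38 counts fed, 1 to 7 fasted).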
